A study of Mus musculus with 10 samples.

Results

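Intronic JUN regions were examined in mouse cardiac fibroblasts. The members were taken as every region of the JUN table whose deposited annotation class is an intron, and there were 25985 of them among 72990 listed JUN regions (35.6%). The intervals and read numbers come from CUT&Tag, an assay in which an antibody tethers a transposase to chromatin so that DNA next to the bound protein is cut, tagged and sequenced. Both JUN libraries were made from primary fibroblasts of the mouse heart that had received TGF-β, the cytokine that turns fibroblasts into matrix-producing myofibroblasts. In the library titled TGF-JUN (TGF below) no siRNA is named. In the library titled SIHK1-JUN (siHK1 below) the series design names an siRNA against Hk1, which encodes hexokinase 1, the enzyme that commits glucose to glycolysis, before TGF-β. There was 1 library per condition, so no value here has a replicate error, no difference between the conditions was tested, and each statement compares these libraries. Age, sex and strain are not given by the labels, no JUN library without TGF-β and no library made with a control antibody was used, and the data hold no RNA with which to check the knockdown.

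JUN is a basic leucine zipper protein that pairs with FOS, ATF and other JUN proteins to form AP-1, a dimer that binds the palindrome-like heptamer TGACTCA. AP-1 responds to growth factors, stress and TGF-β through mitogen-activated protein kinases, and in fibroblasts it is known for opening enhancers beside lineage factors. Enhancers often lie in the introns of the gene they act on or of a neighbour, so the gene that hosts a region need not be its target.

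The sequences that follow show what the JUN regions looked like at their AP-1 sites, on the plus strand of GRCm38, with TGACTCA or its reverse complement TGAGTCA in capitals. The Hk1 stretch comes from the strongest intronic JUN region of the gene whose product was targeted. This stretch holds 2 of the 3 sites of that region. The windows of 61 bases come from the strongest intronic regions of genes for TGF-β signalling (Ltbp1, Pmepa1, Smad3), matrix (Col4a1), contraction (Myh9), adhesion (Tns1), kinase signalling (Dusp10), the Hippo pathway (Tead1) and fibroblast identity (Ddr2, Gsn). Ank2 stands for the highest levels, Oprm1 for regions with fewer siHK1 reads, and Tll2 and Anxa5 for regions with more.
Hk1, chr10:62300318-62300473: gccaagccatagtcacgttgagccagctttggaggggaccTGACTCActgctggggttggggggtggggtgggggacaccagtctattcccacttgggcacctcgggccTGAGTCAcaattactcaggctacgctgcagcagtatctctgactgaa
Ltbp1, chr17:75110636-75110696: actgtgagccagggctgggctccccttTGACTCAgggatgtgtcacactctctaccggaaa
Pmepa1, chr2:173263774-173263834: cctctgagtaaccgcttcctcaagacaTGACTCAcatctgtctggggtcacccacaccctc
Smad3, chr9:63678224-63678284: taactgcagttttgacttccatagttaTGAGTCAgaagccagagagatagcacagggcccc
Col4a1, chr8:11273968-11274028: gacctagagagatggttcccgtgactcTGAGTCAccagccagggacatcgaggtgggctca
Myh9, chr15:77800739-77800799: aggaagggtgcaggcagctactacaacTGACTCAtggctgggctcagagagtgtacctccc
Tns1, chr1:74028979-74029039: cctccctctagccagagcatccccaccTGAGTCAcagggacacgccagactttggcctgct
Dusp10, chr1:184061170-184061230: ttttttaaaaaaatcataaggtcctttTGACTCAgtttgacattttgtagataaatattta
Tead1, chr7:112720217-112720277: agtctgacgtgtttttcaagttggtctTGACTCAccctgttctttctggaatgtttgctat
Ddr2, chr1:170058261-170058321: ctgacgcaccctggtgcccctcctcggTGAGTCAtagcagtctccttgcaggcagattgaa
Gsn, chr2:35271973-35272033: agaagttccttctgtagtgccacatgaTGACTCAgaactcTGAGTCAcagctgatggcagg
Ank2, chr3:127063823-127063883: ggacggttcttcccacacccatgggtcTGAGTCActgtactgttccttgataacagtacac
Oprm1, chr10:6987442-6987502: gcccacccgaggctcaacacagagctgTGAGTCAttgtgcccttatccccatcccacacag
Tll2, chr19:41160385-41160445: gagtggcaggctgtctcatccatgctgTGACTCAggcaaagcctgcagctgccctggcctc
Anxa5, chr3:36455901-36455961: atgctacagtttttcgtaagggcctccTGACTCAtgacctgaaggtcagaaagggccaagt
Not every strong or changing region held such a site. The first stretch, in Gm33838, comes from the centre of the highest-level intronic region, of which 92.8% is repeat-masked. SMAD3 and NFATC2 reads were far above their medians there too, as given below. The second, in Wdfy4, comes from the centre of the region with the largest siHK1 fall among those above the JUN table's median level. Both stretches are 120 central bases and carry no site, so they have no capitals.
Gm33838, chr9:35305349-35305468: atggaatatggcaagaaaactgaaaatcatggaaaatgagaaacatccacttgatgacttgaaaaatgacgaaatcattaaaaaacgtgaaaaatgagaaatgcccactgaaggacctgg
Wdfy4, chr14:32984428-32984547: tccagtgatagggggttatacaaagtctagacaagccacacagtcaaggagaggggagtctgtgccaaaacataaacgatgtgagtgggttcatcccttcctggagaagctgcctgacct

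AP-1 sites were concentrated at the centres of intronic JUN regions. The heptamer, searched on both strands, was found in the central 200 bp of 6906 of 25985 intronic regions (26.6%, exact Clopper-Pearson 95% interval 26.0 to 27.1). In windows of the same length 5 kb to either side it was found in 1810 of 51935 (3.49%, 3.33 to 3.65), a share 7.63 times smaller. Distal intergenic JUN regions gave 28.5% (27.9 to 29.1) against 3.72% in their flanks, and promoter regions 14.4% (13.9 to 14.9) against 3.44%. The profile around the centres peaked at 6.28 sites per 100 intronic regions in a 40-bp bin and fell to 0.712 at 980 bp before the centre. Counted over the whole region, 11916 intronic regions (45.9%) held at least 1 site, and 2516 held more than 1. Of the 15121 sites, 52.8% lay within 100 bp of the region centre, and the median distance was 95 bp. The site nearest the centre was in repeat-masked sequence in 904 regions (7.59% of those with a site).

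**Figure D1:**
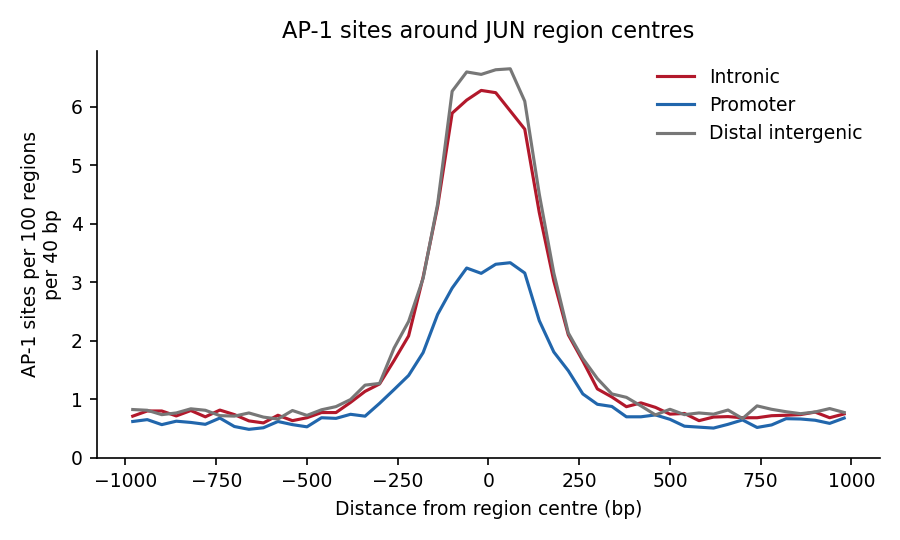
AP-1 sites (TGACTCA, both strands) per 100 JUN regions in 40-bp bins, plotted against the distance from the region centre in bp for intronic, promoter and distal intergenic regions. The intronic line peaks at 6.28 sites per 100 regions, close to the distal intergenic line and above the promoter line.

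The bases beside the heptamer also differed between bound regions and their flanks. With every site written as TGACTCA, a T stood directly before it at 8.19% of 15121 sites in intronic JUN regions and at 18.8% of 1845 sites in the flanks. An A stood directly after it at 11.1% of the sites in regions and at 22.2% of those in flanks. A T after the heptamer was found at 30.5% against 20.9%, and an A before it at 30.8% against 24.0%. The pair T before and A after, the least frequent of the 16 combinations in the regions, made up 0.807% of sites there and 4.93% in the flanks.

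At intronic centres the motifs of other factors exceeded their flanks by less than AP-1 did. The cAMP response element TGACGTCA, which ATF and CREB dimers prefer, was in 0.423% of intronic centres and 0.146% of flanks (2.89-fold), and in 1.24% of promoter centres and 0.155% of their flanks. At promoters its ratio of centre to flank, 7.96, was above the 4.18 of AP-1. The TEAD motif CATTCC was in 15.5% against 10.9%, the short SMAD box CAGAC in 45.4% against 37.5%, and the RUNX motif TGTGGTT in 5.63% against 4.78%. The C/EBP motif TTGCNNAA was in 9.22% against 8.32%, and the NFAT motif TGGAAA in 19.1% against 18.8%. Next to an AP-1 site the shares were similar: TEAD letters were in 15.6% of intronic centres with an AP-1 site and in 15.4% of those without, and the SMAD box was in 46.7% and 44.9%. A match to such letters is a description of the sequence and not a measured binding site.

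Stronger intronic JUN regions carried the AP-1 site more often. Level is the mean of the normalized log2 values of both libraries, and intronic regions were ranked by it into quintiles of 5167 to 5230 regions. From the lowest to the highest quintile the share with a site in the central 200 bp was 13.3% (12.4 to 14.3), 23.3%, 27.8%, 30.9% and 37.7% (36.3 to 39.0). In the flanks it stayed between 3.21% and 3.87%. Read numbers rose with the number of sites in a region: the 14069 regions with no site had a median of 22 TGF and 11 siHK1 reads, the 9400 with 1 site had 41 and 21, the 2120 with 2 sites 79 and 41, and the 320 with 3 sites 146 and 74.5. The 76 regions with 4 or more sites had 185 and 97.5. Width rose as well, from a median of 359 bp without a site to 802 bp with 3, and its part in these read numbers was not tested.

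**Figure D2:**
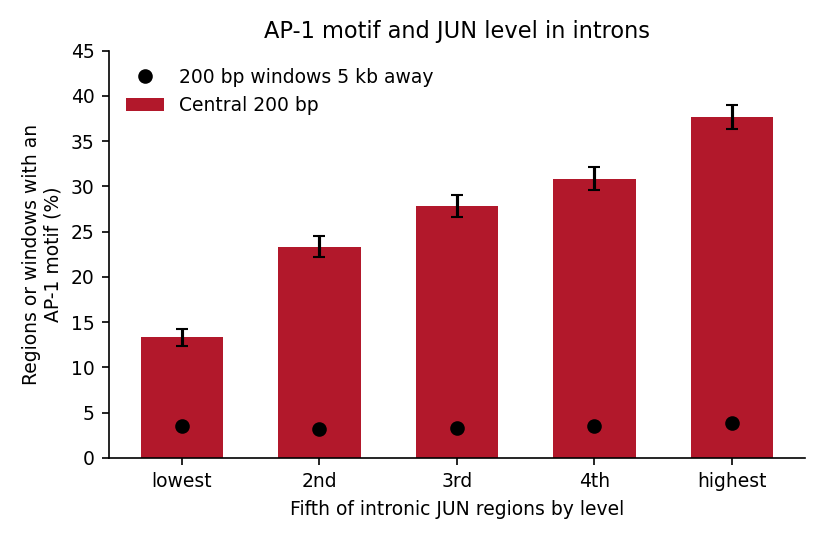
Share of intronic JUN regions with an AP-1 motif in the central 200 bp (bars, with exact 95% binomial intervals) and of 200-bp windows 5 kb away (points), by quintile of JUN level. The bars rise from 13.3% to 37.7%, while the points stay between 3.21% and 3.87%.

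Intronic regions were short and most had few reads. They covered 12.8 Mb with a median width of 425 bp (180 to 3073 bp). The TGF library had 1420743 reads in them (111 per kb), with a median of 31 per region (quartiles 16 and 65, highest 1803). The siHK1 library had 752919 reads (58.9 per kb), with a median of 16 (quartiles 8 and 34, highest 1618). The depth of each whole library is unknown, since the sums cover listed regions only. No read was counted in TGF at 85 regions and in siHK1 at 270, and 4820 regions (18.5%) had fewer than 20 reads over both. A peak was called in both libraries at 12521 regions (48.2%), in TGF alone at 10187 (39.2%), in siHK1 alone at 3256 (12.5%) and in neither at 21. Over all listed JUN regions the shares were similar: 49.7% in both, 38.1% in TGF alone and 12.1% in siHK1 alone. Regions called in both had a median of 61 TGF and 34 siHK1 reads, those called in TGF alone 20 and 7, and those called in siHK1 alone 9 and 10. The siHK1 library gave 34.6% of the intronic reads and 35.0% of the reads over all listed JUN regions.

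Regions were found in first and later introns. Of the 25985 regions 8857 (34.1%) were in a first intron, 5143 in the second, 2880 in the third, 1842 in the fourth and 7263 in the fifth or a later one. The median distance to the assigned start site was 20575 bp. The smallest was 3001 bp, a limit set by the annotation, which gives regions nearer a start to the promoter class, so positions near the 5′ end are left out by definition. By midpoint, 4627 of 25645 regions (18.04%) fell in the first 20% of the host transcript and 4450 (17.35%) in the last 20%. Values varied little with intron number: the share with a central AP-1 site was 25.7% to 27.9% and the median difference -0.16 to -0.13.

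The normalized values of the libraries differed little at the typical intronic JUN region, and the direction depended on the regions taken. The difference, siHK1 minus TGF in the normalized log2 values, had a median of -0.15 (quartiles -0.63 and 0.27) in introns, -0.13 over all listed regions, -0.13 in distal intergenic regions and -0.11 in promoter regions. In introns the median was -0.058 with counts scaled to equal totals and -0.95 with no scaling. In the deposited values it turned to 0.010 over the 12521 regions with a peak in both libraries. Each library's deposited values follow a straight line in its log counts, and the part of that scaling in these medians was not tested. At least 2-fold lower values were found at 3787 intronic regions (14.6%), against 13.7% of all listed JUN regions. At least 2-fold higher values were found at 1596 (6.14%), against 5.66% of all listed regions. All but 21 intronic regions were listed with a peak in at least 1 library. Of the lower regions 3564 (94.1%) had a peak in TGF alone, and of the higher 1430 (89.6%) had one in siHK1 alone. These regions entered through the library in which they are high. Among the 12521 regions with a peak in both libraries 222 were lower (1.77%) and 161 higher (1.29%). Among 18689 promoter regions 2238 were lower and 900 higher, and among 23998 distal intergenic regions 3419 and 1383. These differences between classes were not tested. Of the calls in introns 70.4% were lower, and regions listed through TGF alone (10187) outnumbered those listed through siHK1 alone (3256), so this balance is no result about JUN. That share was 60.4% with counts scaled to equal totals and 95.5% with no scaling, where the median of all listed regions was -0.94. A change common to all regions and a difference in depth cannot be told apart here.

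Most 2-fold calls came from regions with few reads. The median difference moved from -0.69 in the lowest level quintile through -0.29, -0.16 and -0.08 to 0.01 in the highest. The lower calls fell from 39.6% to 1.23% of regions and the higher calls from 19.5% to 0.212%. In the lowest quintile 69.7% of regions had a peak in TGF alone, 29.4% in siHK1 alone and 0.918% in both. In the highest quintile 94.3% had a peak in both. The weakest regions thus entered mostly through TGF alone, and the part of this in the medians and calls was not tested. Among the 12573 intronic regions above the median level of the JUN table, 451 were lower and 135 higher. A further description, chosen after the data were seen, was the share of a region's reads that came from siHK1, with its exact 95% interval. The interval lay below the 35.0% of all listed regions at 2571 intronic regions (9.89%, against 9.26% of all listed regions) and above it at 2144 (8.25%, against 8.15%). These shares are close to those of the whole table. Of the 3787 lower regions 1676 had an interval below, and of the 1596 higher regions 959 had an interval above. Such intervals cover counting error only, because reads that are PCR copies are not independent molecules.

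**Figure D3:**
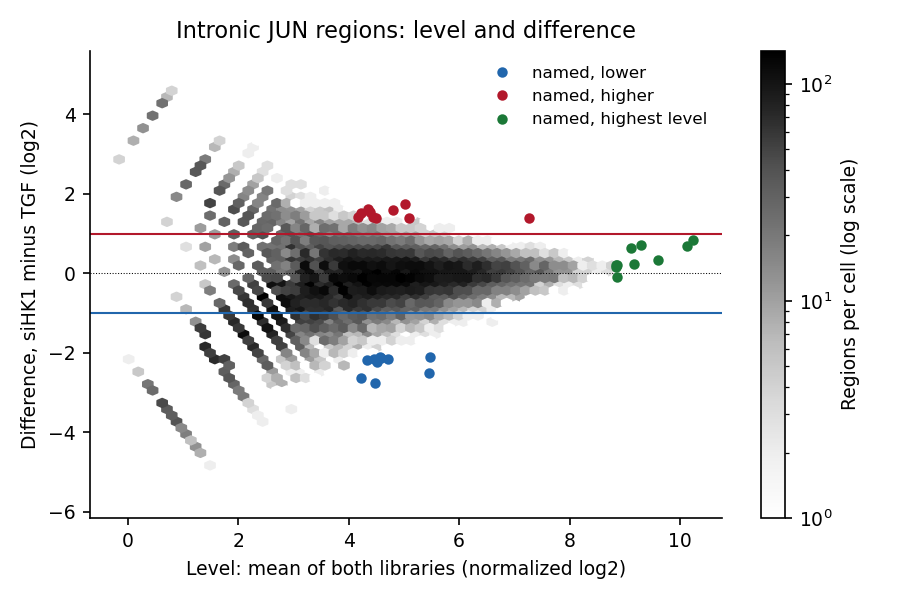
Difference between libraries (siHK1 minus TGF, log2) against level (mean of both normalized log2 values) for 25985 intronic JUN regions, shaded by the number of regions per cell on a log scale, with lines at 2-fold. The cloud narrows as the level rises, and the 10 named regions of each kind lie at its edges.

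The regions past 2-fold held AP-1 sites in smaller shares, and they were also weaker. A central AP-1 site was found in 19.9% of the lower, 12.3% of the higher and 28.9% of the remaining intronic regions. The called regions had medians of 299 bp and 19 TGF reads (lower) and 290 bp and 5 TGF reads (higher), beside 472 bp and 38 TGF reads. The part of level and width in these shares was not tested. In the lowest level quintile, regions with a site anywhere were lower in 46.9% and higher in 12.6%, and regions without one in 37.9% and 21.1%. In the highest quintile the values were 1.15% and 0.107% with a site and 1.45% and 0.482% without. Base composition moved with the difference too: the median difference was -0.04 in the quintile of lowest GC content (median GC 40.6%) and -0.22 in that of highest GC content (54.4%).

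The highest intronic levels belonged to 2 kinds of region. In 5 of the 10 highest the region held AP-1 sites: a region of A830008E24Rik (835 TGF and 495 siHK1 reads, 5 sites), one of Ank2, which encodes ankyrin-B, the anchor of ion channels to the membrane skeleton (827 and 488 reads, 5 sites), one of Sh3bp2, an adaptor protein (841 and 482, 3 sites), one in the long transcript Gm20388 (1033 and 619, 3 sites) and one of Gm21451 (934 and 449, 1 site). Regions without a site included the highest, at chr9:35305222-35305594 in the only intron of Gm33838, with 1803 TGF and 1618 siHK1 reads and 92.8% of its bases repeat-masked. More such regions lay in Chl1, a neural adhesion protein (1756 and 1417 reads, 30.9% masked), 2700054A10Rik (1370 and 876, 97.8% masked) and Mdga2 (867 and 689, 82.4% masked). In these 4 regions siHK1 gave 39.0% to 47.3% of the reads, and each interval lay above 35.0%.

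At several of these regions the other antibodies also had far more reads than usual. The SMAD3 region on the Gm33838 interval had 4141 TGF and 2205 siHK1 reads and the NFATC2 region 3722 and 2050, where the median over all listed SMAD3 regions was 4 and 3 and over all listed NFATC2 regions 3 and 2. The Chl1, 2700054A10Rik and Mdga2 intervals likewise lay on SMAD3 regions with 2153 to 3418 TGF reads. On the 2700054A10Rik interval the H3K9lc region had 52412 TGF and 33960 siHK1 reads. At the 5 regions with AP-1 sites the overlapped SMAD3 regions had 12 to 28 TGF reads. The part of repeats in the JUN reads there was not tested.

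A near-identical copy affects 1 of these regions. The Gm21451 region on chromosome 14 and the strongest Loxl2 region share 1013 of the 1054 31-base words of the Loxl2 region (96.1%), and the 61 bases around their AP-1 sites are the same.
Gm21451, chr14:69448429-69448489: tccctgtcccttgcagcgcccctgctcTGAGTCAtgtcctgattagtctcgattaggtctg
Loxl2, chr14:69666704-69666764: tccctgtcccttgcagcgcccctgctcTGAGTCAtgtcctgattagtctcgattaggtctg
The aligner may have divided reads between them, so the counts of both (934 and 449 at Gm21451, 500 and 249 at Loxl2) are uncertain.

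The largest falls in siHK1 were ranked among intronic regions above the median level of the table, so the values are a description. Intronic regions below that level had larger falls and larger rises, and those were not ranked. The Wdfy4 region printed above, in intron 48 of 58 of a gene for an antigen-presentation protein, had 103 TGF reads and 8 siHK1 reads (difference -2.76). Fars2, mitochondrial phenylalanyl-tRNA synthetase, had 82 and 7 reads (-2.63). Oprm1, the mu opioid receptor, had 191 and 18 (-2.49), the most reads of the 10. Parn, a poly(A) ribonuclease, had 88 and 10 (-2.24), and Kirrel3, a cell adhesion protein, 76 and 9 (-2.18). Rab31, a small GTPase of vesicle traffic, had 99 and 12 (-2.15), and Tspan18, a tetraspanin, 87 and 11 (-2.09). The other 3 lay in Gm12514, Gm29387 and a long transcript named for Fgfr2. AP-1 sites were present in 5 of the 10, and a peak was called in TGF at all 10 and in siHK1 at 2.

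Ranked above the same level, the largest rises were smaller and mostly rested on fewer reads. Arhgap28, a GTPase-activating protein, had 30 TGF and 59 siHK1 reads (1.74), and no TGF peak. Ptpra, a receptor tyrosine phosphatase, had 19 and 35 (1.61), and Tll2, a protease of the tolloid family, 27 and 48 (1.59). Ctnna2, an alpha-catenin, had 20 and 35 (1.54), and the nuclear receptor coactivator Ncoa2 18 and 31 (1.51). Adcy8, Fat3, Aff1 and Anxa5 had 18 to 36 TGF and 29 to 55 siHK1 reads. Tmem163, a zinc transporter, was the only one of the 10 with over 100 reads in both libraries: 174 in TGF and 250 in siHK1 (1.39), with a siHK1 share of 58.96% (54.1 to 63.7). AP-1 sites were present in 4 of the 10, and none overlapped a SMAD3 or NFATC2 region. A peak was called in siHK1 at all 10 and in TGF at 6, the exceptions being Arhgap28, Ptpra, Ctnna2 and Fat3.

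The 25985 regions lay in 7524 host genes, of which 3229 had 1 region and 545 had 10 or more. Those 545 genes held 8974 regions (34.5%). Protein-coding hosts accounted for 22001 regions (84.7%), lincRNAs for 2232 and antisense transcripts for 711. The host was also the assigned nearest gene at 18938 regions (72.9%). The hosts with most regions were long transcripts. Gm20388 had 248 regions, with its longest transcript at 4435 kb, and 74 regions were placed in Fgfr2, whose longest transcript spans 2961 kb. Pde4d, a cAMP phosphodiesterase, had 57 regions over 1297 kb, Rbms3, an RNA-binding protein, 56 over 1052 kb, and Atxn1, a transcriptional regulator, 41 over 415 kb. Lpp, a focal adhesion LIM protein, had 39, Elmo1, a Rac activator, 38, and Mast4, Nav2 and Ptprm 36 each. Per 100 kb of transcript Atxn1 was highest of the 10, with 9.87 regions, and Fgfr2 lowest, with 2.50.

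The calls within these hosts are given beside the 13.7% lower and 5.66% higher of all listed JUN regions, and no host was tested against these shares. Atxn1 had 2 lower and no higher regions of 41 (median difference -0.13), with 2627 TGF and 1464 siHK1 reads in all. Pde4d had 11 lower and 1 higher of 57 (-0.28), and Nav2, a helicase-domain protein of axon growth, had 11 lower and 3 higher of 36 (-0.22). Ptprm, a receptor phosphatase of cell contacts, had the lowest siHK1 share of the 10, 30.4% of 2694 TGF and 1178 siHK1 reads combined. Rbms3 was close to the whole table, at 35.4%.

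The gene lists that follow are described by their counts, beside the 13.7% lower and 5.66% higher of all listed JUN regions, the 14.6% and 6.14% of all intronic regions and their medians of -0.13 and -0.15, and no list was tested against these. Of 30 genes of TGF-β signalling 21 hosted 134 intronic regions, with a median difference of -0.04. Of these regions 12 were lower (8.96%, against 13.7% of all listed) and 4 higher (2.99%, against 5.66%). The ligand-storage protein Ltbp1 had the most, 31 regions, 4 of them lower and none higher, and its strongest had 492 TGF and 285 siHK1 reads and 2 AP-1 sites. Smad3, the transcription factor that carries the signal to the nucleus, had 11 regions with 1358 TGF and 805 siHK1 reads in all, and none passed 2-fold. Its differences ran from -0.40 to 0.69, and 10 of the 11 regions lay in the first intron. Pmepa1, a feedback inhibitor, had 481 and 274 reads at its strongest region. The receptors Tgfbr3 and Acvr1 had 12 and 13 regions, with 256 and 168 reads at the strongest of Tgfbr3 and 184 and 89 at that of Acvr1. Bmpr1a, a BMP receptor, had 3 lower regions of 7 and differences from -3.54 to -0.10, with 153 TGF and 51 siHK1 reads in all. No intronic region was listed for Tgfb1 or Smad2, among others.

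Of 36 matrix genes 23 hosted 147 regions, with a median difference of 0.00. Of these 9 were lower (6.12%, against 13.7% of all listed) and 8 higher (5.44%, against 5.66%). The type IV collagen genes Col4a1 and Col4a2, which lie head to head and encode basement membrane chains, had 12 and 19 regions. The strongest Col4a2 region had 397 TGF and 272 siHK1 reads, and that of Col4a1 350 and 229. Of the 12 Col4a1 regions 7 had a siHK1 share whose interval lay above 35.0%, and 2 passed 2-fold higher. Timp3, a metalloproteinase inhibitor, had 3 regions, all with an interval above and with differences of 0.56 to 0.78 (319 TGF and 279 siHK1 reads in all). Col4a1 and Timp3 were singled out here after their values were seen. Fbn1, the microfibril protein fibrillin-1, had 21 regions with 1 lower and 2 higher. Col6a3 had 317 and 213 reads at its strongest region, and the lysyl oxidase homologue Loxl1 363 and 182. Of the fibrillar collagens Col5a1 had 13 regions with 910 TGF and 539 siHK1 reads in all, Col5a2 had 5, and Col3a1 had 1 with 20 and 14 reads. Col1a1 and Col1a2 hosted no intronic region, nor did Fn1.

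Contractile and adhesion genes gave 109 and 192 regions. For contraction, 20 of 34 genes hosted regions (median -0.09). Of the 109 regions 17 were lower (15.6%, against 13.7% of all listed) and 7 higher (6.42%, against 5.66%), shares near those of all intronic regions. The strongest lay in Myh9, non-muscle myosin heavy chain (412 TGF and 246 siHK1 reads, 2 AP-1 sites), and in Actn1, an actin crosslinker of stress fibres (286 and 212). Palld, the stress fibre protein palladin, had 19 regions, 6 lower and 1 higher, with 1060 TGF and 440 siHK1 reads in all and a median difference of -0.47. It too was picked out after its values were seen. Acta2, the marker gene of myofibroblasts, Tagln and Cnn1 hosted none. For integrins and focal adhesions, 24 of 29 genes hosted regions (median -0.14). Of the 192 regions 30 were lower (15.6%, against 13.7% of all listed) and 7 higher (3.65%, against 5.66%), and the median and the lower share were near those of all intronic regions. Tns1, which links integrins to actin, had 23 regions, and the strongest had 412 and 240 reads. Itga9 had 21 regions with 6 lower and 1 higher, and Itga11, a collagen receptor of fibroblasts, had 4 lower of 6, on 88 TGF and 31 siHK1 reads in all.

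JUN's own family hosted few intronic JUN regions. Of 19 AP-1 family genes 6 hosted 7 regions, and Jun, Junb and Jund, which have no intron, could host none. Batf had 90 TGF and 25 siHK1 reads (difference -0.99), with a siHK1 share of 21.7% (14.6 to 30.4). Atf2, a partner of JUN, had 55 and 21, Atf3 35 and 19 at the stronger of its 2 regions, and Fosl1 33 and 20. Jdp2, which can repress AP-1 targets, had 5 and 7 reads, and Fosl2, a FOS-related partner of JUN, 11 and 2, too few to place their differences. These were the only higher (Jdp2) and lower (Fosl2) of the 7 regions.

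Upstream of AP-1, 19 of 28 genes of MAPK and growth factor signalling hosted 91 regions (median 0.10). Of these 9 were lower (9.89%, against 13.7% of all listed) and 4 higher (4.40%, against 5.66%). The strongest, with 618 TGF and 360 siHK1 reads, lay in a transcript assigned to Dusp1, 21164 bp from the assigned start site of that MAPK phosphatase. Dusp10, which acts on JNK and p38, had 158 and 146 reads at its strongest region (difference 0.75), with a siHK1 share of 48.0% (42.3 to 53.8), the highest among the 5 genes named for this list. Map4k4, a kinase upstream of JNK, had 172 and 132 (0.49). The growth factor gene Nrg1 had 20 regions, 3 lower and 1 higher, and Ereg had 139 and 93 reads at its strongest. Egfr and Met had 11 and 8 regions with 1 higher in each. In the Hippo pathway, 13 of 22 genes hosted 67 regions (median 0.07). Of these 7 were lower (10.4%, against 13.7% of all listed) and 3 higher (4.48%, against 5.66%). Axl, a receptor kinase and YAP target, had 393 and 249 reads in 1 region. Tead1, the DNA-binding partner of YAP, had 15 regions, the strongest with 258 and 192 reads (0.47), and Amotl1 had 192 and 131. Stk3, the MST2 kinase, had 4 lower regions of 9.

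**Figure D4:**
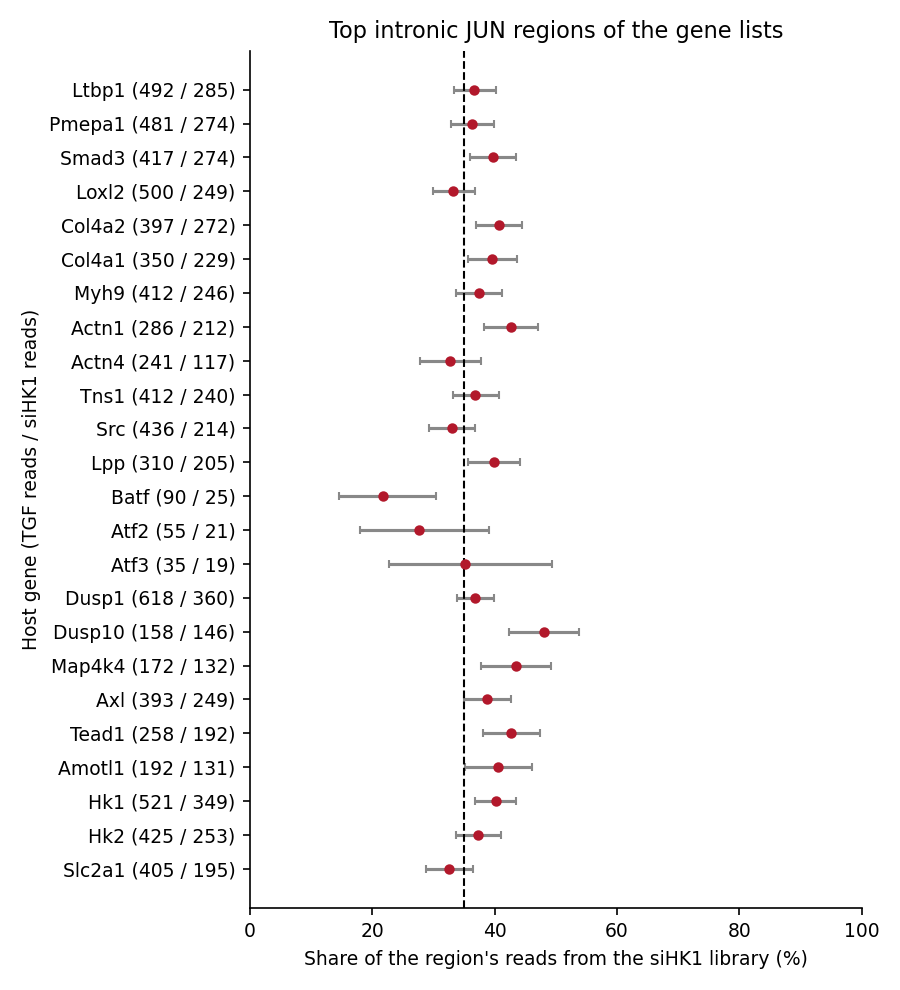
Share of reads from the siHK1 library (%) with exact 95% binomial intervals at the strongest intronic JUN region of 3 genes from each of 8 gene lists, with TGF and siHK1 reads in parentheses. The dashed line marks 35.0%, the share over all listed JUN regions. The Batf interval lies below it, and Dusp10 lies farthest above.

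Glycolytic genes hosted few regions. Of 25 genes 5 hosted 22 regions (median -0.08). Of these 2 were lower (9.09%, against 13.7% of all listed) and 1 higher (4.55%, against 5.66%). Hk1, the knockdown target, had 3. The strongest, chr10:62299788-62300775 in intron 3 of 17, had 521 TGF and 349 siHK1 reads (difference 0.36), a siHK1 share of 40.1% (36.8 to 43.5) and 3 AP-1 sites, 2 of which are printed above. The remaining regions lay in the first intron, with 64 and 28 reads (-0.36) and with 19 and 9 (-0.29), and neither held a site. Hk2, the inducible hexokinase, had 9 regions and 425 and 253 reads at the strongest. Slc2a1, the glucose transporter GLUT1, had 405 and 195 (-0.13). No intronic region was listed for Ldha, Pkm, Pgk1 or Slc16a3, among others. Of the 12 genes the study names, 4 hosted regions, and Irf7, an interferon regulatory factor, was not among them. Smyd3, a histone methyltransferase gene, had 18, with 315 and 193 reads at the strongest, 1 lower and 1 higher. Postn, the matricellular protein periostin, had 1 region with 27 and 5 reads (-1.55) and a siHK1 share of 15.6% (5.28 to 32.8). Its peak was called in TGF alone, so the region was listed through the library in which it is high.

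Markers of cell types other than fibroblasts also hosted regions. Of 10 fibroblast markers 4 hosted 24 regions (Ddr2, 326 TGF and 202 siHK1 reads at its strongest, Gsn, Dcn and Pdgfra). Of 9 endothelial markers 8 hosted 33, among them Cdh5 with 247 and 145 reads and Flt1 with 332 and 276, where 87.9% of the region was repeat-masked. Cardiomyocyte markers hosted 6 (3 of 10 genes), leukocyte markers 5 (2 of 9), smooth muscle and pericyte markers 12 (5 of 8) and epicardial markers 1 (1 of 6). A JUN region is not a measure of expression, and the makeup of the cultures was not tested.

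A minority of intronic JUN regions shared DNA with regions of the other antibodies, and differences between classes were not tested. At least 1 bp overlapped a SMAD3 region at 4001 intronic regions (15.4%, 15.0 to 15.8), against 26.1% of promoter and 15.0% of distal intergenic regions. SMAD3 is the TGF-β effector, and the 3983 SMAD3 regions involved were 6.79% of that table. An NFATC2 region, for a calcium-responsive factor, was overlapped at 3334 (12.8%, 12.4 to 13.2), against 22.1% and 13.1%, and these were 4.82% of the NFATC2 table. A region of H3K9lc, lactylation of histone H3 at lysine 9, was overlapped at 1254 (4.83%, 4.57 to 5.09), against 5.60% and 7.88%, and these were 1.65% of the H3K9lc table. Over all listed JUN regions the overlap shares were 18.1% for SMAD3, 15.4% for NFATC2 and 6.07% for H3K9lc. All 3 were met at 512 intronic regions and none at 19689 (75.8%), and the share with none was not counted over all listed regions. The overlapped SMAD3 regions were thin in reads, with a median of 5 in TGF and 7 in siHK1, and those of NFATC2 had 6 and 4. A peak was called in both libraries at 14.1% of these SMAD3 regions and at 4.98% of all listed ones. The JUN regions on them were strong, with a median of 60 TGF and 29 siHK1 reads.

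At a given JUN level, regions with an AP-1 site overlapped the other tables in smaller shares, as a description. In the lowest level quintile 3.40% (2.35 to 4.74) of regions with a site overlapped a SMAD3 region, against 11.8% (10.9 to 12.8) without, and in the highest 28.8% (27.4 to 30.3) against 37.5% (35.0 to 40.1). The same order held in every quintile for NFATC2, with 22.7% against 31.1% in the highest, and for H3K9lc, with 5.66% against 10.6%. Without regions that were over 50% repeat-masked, the SMAD3 shares were 3.28% and 7.48% in the lowest quintile and 28.8% and 35.8% in the highest. Pooled over levels, those less repetitive regions gave 13.8% with a site and 13.7% without, at a median of 48 and 23 TGF reads. The regions with a site were also wider in the highest quintile, 770 bp against 732 bp.

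Overlaps were most frequent in heavily repeat-masked regions. The 629 intronic regions with over 90% of their bases masked overlapped SMAD3 regions in 63.6%, NFATC2 regions in 58.3% and H3K9lc regions in 42.6%, and 2.86% held an AP-1 site. The 5733 with no masked base overlapped them in 10.9%, 9.56% and 3.52%, and 34.9% held a site. The share with a site was higher in between: 51.1% with up to 25% masked, 52.6% with 25 to 50% and 37.4% with 50 to 90%. The heavily masked regions had a median of 14 TGF and 6 siHK1 reads and a peak in both libraries at 21.8%. Their difference had a median of -0.40, beside -0.22 in the regions with no masked base. It was -0.10 in those with up to 25% masked, -0.15 with 25 to 50% and -0.26 with 50 to 90% masked. Without all regions over 50% masked, 13.8% of intronic regions overlapped SMAD3 and 27.4% held a central AP-1 site.

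**Figure D5:**
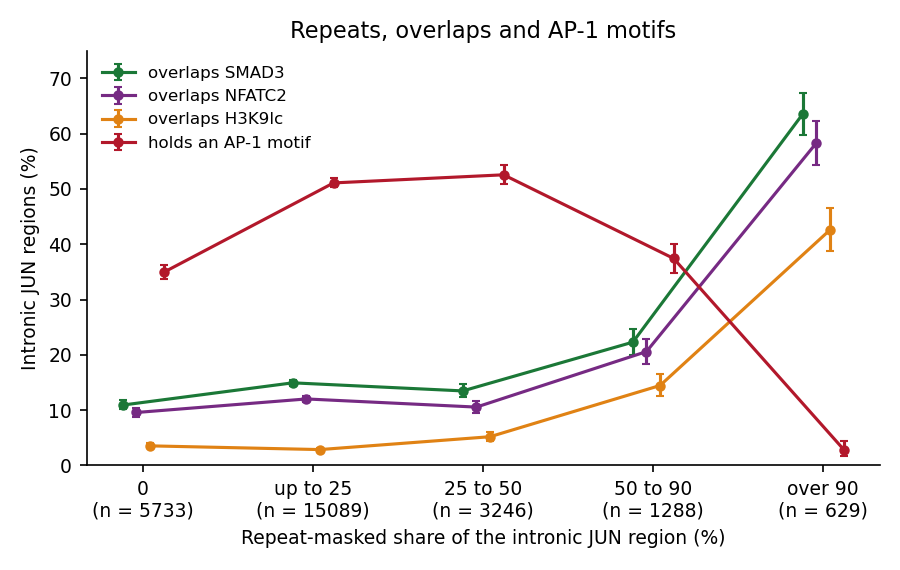
Share of intronic JUN regions (%) that overlap a SMAD3, NFATC2 or H3K9lc region or hold an AP-1 motif, with exact 95% binomial intervals, by the repeat-masked share of the region (%). Overlaps rise to 63.6%, 58.3% and 42.6% in regions over 90% masked, where 2.86% hold a motif.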

How the data were processed

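CUT&Tag of JUN in 2 libraries of primary mouse cardiac fibroblasts was analysed, with SMAD3, NFATC2 and H3K9lc tables for overlap only. The study's methods name Bowtie2, GRCm39, MACS2 and a DNA spike-in, while the submitters' processing notes name BWA 0.7.12 and mm10. The authors deposited, for each region, a raw read count per library, a peak mark of 0 or 1, and normalized log2 values. Those log2 values are exact lines in log2(count + 0.5), with slope 1 for siHK1 and 0.961 for TGF. The authors' own log2 ratios, errors, p-values and calls are deposited too and were not used. The library without an antibody label and the NC library were not used.

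All 30096 host or nearest transcripts found in GENCODE vM21 had the deposited coordinates, so GRCm38 was read. Host genes came from the annotation text through vM21, or RefSeq at 340 regions (22 of them stayed unnamed). Repeat masking is the lower case of the RefSeq genome. Shares carry exact 95% intervals (scipy 1.17.1, pandas 2.3.3, numpy 2.4.6, Python 3.11.15), which cover counting error only. The differences, intervals, motif search and overlaps were tested on simulated data. With 1 library per condition, no test was made.

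Members and gene lists were chosen with earlier results of these data known. Named were the 10 intronic regions of highest level, the 10 of largest difference in each direction above the median level of the table, the 10 hosts with most regions, up to 5 genes per list, and the study's genes. Bmpr1a, Timp3, Palld, Itga9, Itga11, Stk3, Fbn1, Fosl2, Col5a1, Col5a2, Egfr and Met were added after their values were seen. A 2-fold call means a difference of at least 1 on the log2 scale. One region of the highest level is not reported here.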

Additional observations from a re-analysis of the deposited data

How the results depend on the processing

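No paired analysis was possible because there is only 1 JUN library on either side, and for that reason none could be left out. With no scaling, 12178 intronic regions were lower and 578 higher, with a median difference of -0.95. With equal totals the median was -0.058, and 3161 lower and 2072 higher. Pseudocounts of 1 and 0.1 gave medians of -0.13 and -0.16. Above the table's median level, 451 were lower and 135 higher (median -0.043), 81.6% were called in both libraries and 33.3% held a central AP-1 site. With a peak in both libraries, 222 were lower and 161 higher, the median turned to 0.010, 33.4% held a site, and 20.2%, 16.8% and 5.59% overlapped SMAD3, NFATC2 and H3K9lc. With a width of at least 200 bp the median was -0.13 and 50.5% were called in both. Where the host was the nearest gene the median was -0.14. An AP-1 site was in 13.5% of central 100-bp windows, 42.3% of 400-bp windows and 45.9% of whole regions. Overlaps of at least 50% of the JUN region gave 7.68%, 5.87% and 3.19%, and only regions called in both libraries of the other antibody 2.19%, 1.89% and 1.81%. Added after the data were seen, leaving out regions over 50% masked gave a median of -0.14, 49.8% called in both, 27.4% with a site, and overlaps of 13.8%, 11.2% and 3.32%. For all of these the cause was not tested, except that subsets hold fewer regions and longer windows more sequence. Over both libraries 18.5% of intronic regions had fewer than 20 reads. At single named regions 302 values moved less than their interval, 70 moved more and none past 2-fold turned sign.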

Other observations

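Other hosts with many intronic JUN regions were named after their values were seen and were not tested against the 13.7% lower and 5.66% higher of all listed JUN regions. Camta1, a calmodulin-binding transcription activator, had 33 regions, 12 lower and 1 higher, with a median difference of -0.72 and 2718 TGF and 1180 siHK1 reads. Slit3, a secreted guidance ligand, had 34 regions, 8 lower and 2 higher, and siHK1 gave 27.6% of its reads. The orphan nuclear receptor gene Rora had 9 lower and 3 higher of 34, and Foxp1, a forkhead repressor, 9 lower and 1 higher of 35. Maml2, a Notch coactivator, had 2 lower and 1 higher of 34, with a median difference of 0.12 and a siHK1 share of 38.5%. These values carry no replicate error.

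Intronic JUN regions often lay near another JUN region: 11490 (44.2%) were within 5 kb of one. Among neighbouring AP-1 sites of the same region, 1022 pairs were 50 bp or less apart and 2183 were farther apart. Of the regions on SMAD3 regions, 1518 (37.9%) also lay on an NFATC2 region, which is 45.5% of those on NFATC2 regions.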
